A study of Mus musculus with 23 samples.

Results

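Macrophages are the resident phagocytes of tissues, and in bone they share a myeloid precursor with osteoclasts. The 9 genes described here were listed as macrophage genes, and not all of them are made by macrophages alone. *Gpnmb* encodes a transmembrane glycoprotein, also named osteoactivin, that macrophages, osteoclasts and osteoblasts make and that is known as a target of the MITF family of transcription factors. *Cd68* encodes a lysosomal membrane protein, and *Adgre1* the F4/80 surface antigen of mouse macrophages. *Mrc1* encodes the mannose receptor CD206, and *Cd163* the scavenger receptor for haemoglobin bound to haptoglobin. *C1qa*, *C1qb* and *C1qc* encode the A, B and C chains of C1q, the complement protein that binds antibody complexes and dying cells and that macrophages secrete. *Csf1r* encodes the receptor for CSF1 and IL-34, on which macrophages and osteoclast precursors depend. The 9 genes were taken as a list by symbol from the 21402 genes measured, all 9 were found, and all 9 passed the filter on low values, as did 15638 genes in all.

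The values were normalized read counts from total RNA of tibia and femur shafts of 23 mice on a C57BL/6 background, aged 5 months. *Fndc5* encodes the precursor of irisin, a hormone released by exercised muscle. The KO mice lacked FNDC5 in every tissue and were bred with their wildtype (WT) controls from heterozygotes. The study asked whether loss of FNDC5 changes bone and its osteocytes, at rest and under calcium demand, in females and in males. There were 2 KO females and 3 WT females on a low-calcium diet (0.01% calcium for 2 weeks), and 3 KO females and 3 WT females on a control diet (0.6% calcium). Among males there were 3 KO and 3 WT mice on the low-calcium diet and 3 KO and 3 WT mice on the control diet. Each mouse gave 1 library. Marrow was flushed out and the shafts were digested to strip surface cells, so the samples are labelled osteocyte, but they are bone chips and not sorted cells.

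Marker genes showed other cells beside osteocytes. The 16 osteoblast and osteocyte genes summed to 134217 to 1327775 normalized counts per mouse, and 13 neutrophil genes to 276011 to 703763. Neither sum was the higher one in every mouse. Hepatocyte genes summed to 2506, 3828 and 30754 normalized counts in the 3 WT males on the control diet and to at most 370.4 in any other mouse. Mice 16, 17 and 18, the WT females on the low-calcium diet, had a low share of mapped reads per the study, which left possible bacterial reads in place. Recovered reads per library ran from 7217601 in mouse 17 to 33352631. *Fndc5* itself was listed at 0 to 12.4 normalized counts in the 11 KO mice and at 0 to 17.8 in the 12 WT mice, too low to check the genotype labels. In such bulk samples, fewer macrophages and less RNA per macrophage cannot be told apart.

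The 3 C1q genes lie side by side on chromosome 4 within 18675 bases (GRCm38), all on the minus strand, with *C1qa* at chr4:136895917-136898803, *C1qb* at chr4:136880129-136886187 and *C1qc* at chr4:136889804-136893065. *Fndc5* is on the same chromosome, 7735536 bases away. *Gpnmb* (ENSMUSG00000029816.10) is on the plus strand at chr6:49036546-49070929, and *Cd163* is on the same chromosome at chr6:124304656-124330527. *Cd68* is at chr11:69664213-69666153, *Adgre1* at chr17:57358691-57483527 and *Mrc1* at chr2:14229392-14332057.

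The 250 bases before the RefSeq start follow for *Gpnmb*, whose level differed most between groups, for *C1qb*, of the C1q genes, and for *Cd68*, the marker *Gpnmb* was set against. They were taken from RefSeq (GRCm38.p6). A window was taken for 6 of the 9 genes, and *Csf1r* was not looked up. Of these 6 windows, 4 lay wholly outside the gene as GENCODE annotates it. The other 2, of *C1qc* and *Mrc1*, were left out. The windows are chr6:49036268-49036517 (plus strand) for *Gpnmb*, chr4:136886201-136886450 (minus) for *C1qb* and chr11:69666171-69666420 (minus) for *Cd68*. Capitals mark matches, on either strand, to CATGTG and CACGTG (the E-boxes bound by MITF and its relatives), TGANTCA (the AP-1 motif) and GAGGAA (the core of PU.1 sites).
Gpnmb: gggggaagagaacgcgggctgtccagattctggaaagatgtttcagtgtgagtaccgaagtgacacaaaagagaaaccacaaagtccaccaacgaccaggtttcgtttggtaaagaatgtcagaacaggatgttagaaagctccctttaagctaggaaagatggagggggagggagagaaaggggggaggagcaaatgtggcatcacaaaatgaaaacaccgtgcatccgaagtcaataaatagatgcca
C1qb: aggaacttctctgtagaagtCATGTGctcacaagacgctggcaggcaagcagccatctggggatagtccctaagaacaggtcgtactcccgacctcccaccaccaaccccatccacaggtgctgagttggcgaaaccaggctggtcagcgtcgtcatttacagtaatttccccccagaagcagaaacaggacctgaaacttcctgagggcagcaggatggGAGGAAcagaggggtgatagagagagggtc
Cd68: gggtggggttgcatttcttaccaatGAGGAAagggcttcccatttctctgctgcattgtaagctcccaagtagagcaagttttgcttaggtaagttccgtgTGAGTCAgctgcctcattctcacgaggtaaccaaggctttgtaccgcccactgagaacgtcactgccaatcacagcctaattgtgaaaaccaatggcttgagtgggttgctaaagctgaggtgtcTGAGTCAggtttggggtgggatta

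The *Gpnmb* window held none of these 4 motifs. *C1qb* held 1 CATGTG and 1 GAGGAA. *Cd68* held 2 TGANTCA matches and 1 GAGGAA. The *Cd163* window held none of the 4 either. Of 32851 windows of this length over all genes, 12.3% held CATGTG, 6.02% CACGTG, 6.75% TGANTCA and 23.3% GAGGAA. These matches are a description of the letters in the windows.

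Set per kilobase of exon, the most abundant of the 9 over all mice was *Cd68*, at 1013 normalized counts per kilobase, followed by *C1qb* (890.2), *C1qa* (554), *Csf1r* (446), *C1qc* (331), *Mrc1* (326) and *Adgre1* (213). *Gpnmb* came eighth at 98.3 per kilobase and *Cd163* last at 27.7. *Gpnmb* varied most by far. Its highest mouse had 24.3 times the normalized count of its lowest, and its coefficient of variation over the 23 mice was 62.9%. *Cd163* came next, with a ratio of 6.04 and a coefficient of variation of 50.4%. The other 7 genes had ratios of 1.72 (*Cd68*) to 2.42 (*Adgre1*) and coefficients of variation of 13.2% to 23.6%.

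*Gpnmb* was lower in females than in males, higher in KO than in WT females on the low-calcium diet, and lower on the low-calcium diet on average. Normalized counts were 385 and 298 in KO females on the low-calcium diet, and 97.1, 59.8 and 115 in WT females on that diet. KO females on the control diet had 540.4, 503 and 564, and WT females on the control diet had 202, 315 and 139.7. On the low-calcium diet and on the control diet alike, every KO female lay above every WT female of the same diet. For groups this small, the share of all genes that separate in this way was not counted, here or below.

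KO males on the low-calcium diet had 819, 997 and 864 normalized counts of *Gpnmb*, and WT males on that diet had 721, 691 and 685. KO males on the control diet had 1455, 1157 and 738, and WT males on the control diet had 1128, 1241 and 1009. The KO males on the control diet spread most, with a mean of 1117 ± 360.1 (SD, n = 3), and spanned the range of all 3 WT males of that diet. By group mean the order, high to low, was WT males on the control diet, KO males on the control diet, KO males and then WT males on the low-calcium diet, KO females on the control diet, KO females on the low-calcium diet, WT females on the control diet and WT females on the low-calcium diet. Neighbours in that order overlapped between the first and the second, the second and the third, and the KO females on the low-calcium diet and WT females on the control diet. The other neighbours were apart.

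**Figure D1:**
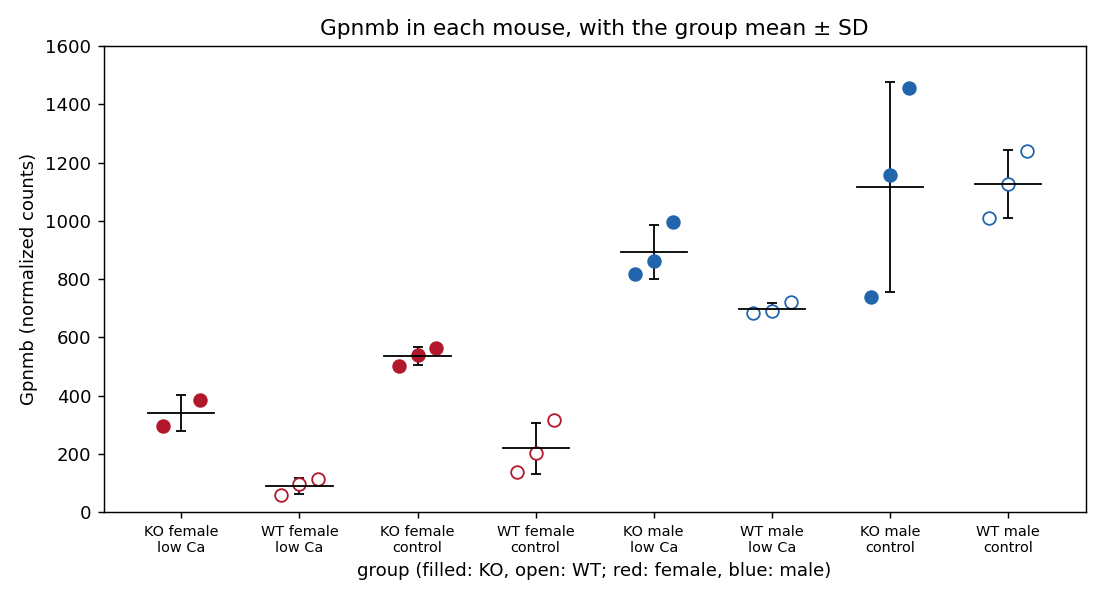
*Gpnmb* in normalized counts (vertical axis) for each mouse of the 8 groups (horizontal axis), with KO filled, WT open, females red and males blue, and with horizontal lines and bars for the group mean and SD. All 11 females lie at or below 564 and all 12 males at or above 685, and the 3 WT females on the low-calcium diet are lowest, between 59.8 and 115.

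The sexes did not overlap. The 11 females ran from 59.8 to 564 normalized counts of *Gpnmb* with a median of 298, and the 12 males from 685 to 1455 with a median of 930.1. Of all genes tested, 90 (0.576%) separated the sexes in this way. None of the other 8 macrophage genes did. Averaged over the 4 pairs of groups of the same genotype and diet, *Gpnmb* was 3.87-fold lower in females (log2 fold change -1.95, SE 0.13, adjusted p = 9.3e-09, lower in all 4 pairs). In that comparison 40.1% of genes tested were called, and *Gpnmb* had the third smallest p of all genes.

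Each pair of groups gave the same direction for *Gpnmb*. In WT mice on the control diet it was 219 ± 89.1 in females and 1126 ± 116 in males (SD, n = 3 each), a log2 fold change of -2.43 (SE 0.25, adjusted p = 1.95e-05, 1.89% of genes called). In WT mice on the low-calcium diet it was 90.8 ± 28.3 in females and 699 ± 18.9 in males (n = 3 each), a log2 fold change of -2.98 (SE 0.25, adjusted p = 1.11e-06, 31.9% called). In KO mice on the control diet it was 536 ± 30.8 in females and 1117 ± 360.1 in males (n = 3 each), a log2 fold change of -1.01 (SE 0.25, adjusted p = 0.0346, 3.91% called). In KO mice on the low-calcium diet it was 341 ± 61.9 in 2 females and 893 ± 92.5 in 3 males, a log2 fold change of -1.39 (SE 0.28, adjusted p = 0.0199, 2.59% called). The call in WT mice on the control diet was lost once hepatocyte and muscle marker levels were fitted as covariates (-2.11, adjusted p = 0.179). The call in KO mice on the control diet was lost without any 1 of the 3 females or without male 10 or 27 (-1.04 to -0.79, adjusted p = 0.052 to 0.138), and that on the low-calcium diet without female 5 or 6 or male 29 (-1.58 to -1.21, adjusted p = 0.0685 to 0.306). Both calls in KO mice were also lost in fits of the 2 groups alone (adjusted p = 0.0611 on the control diet and 0.12 on the low-calcium diet).

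**Figure D2:**
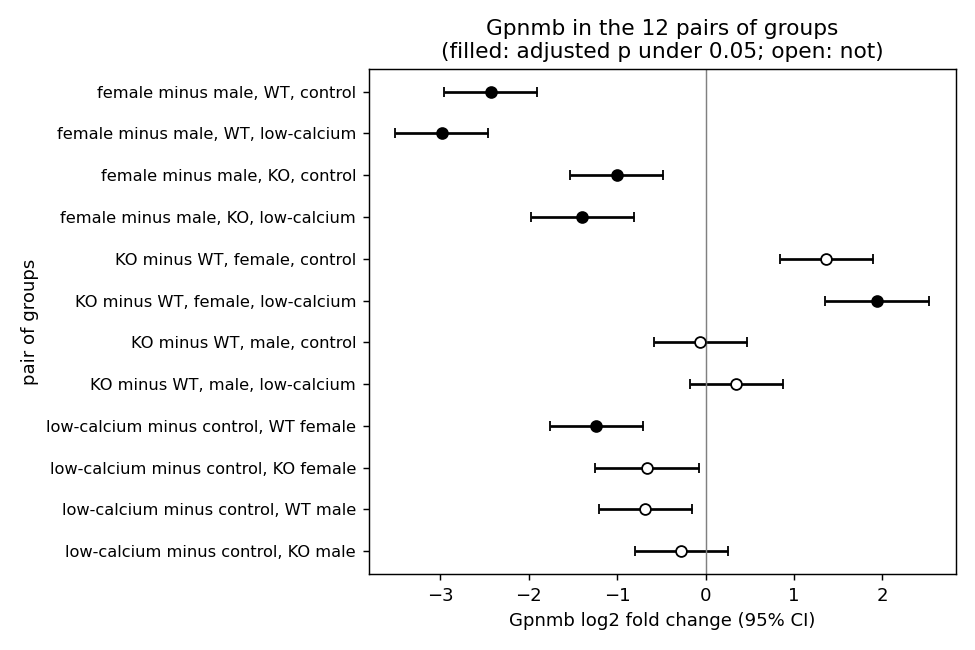
Log2 fold change of *Gpnmb* (horizontal axis, with 95% confidence intervals from the limma fit) in the 12 pairs of groups (vertical axis), with filled points where the adjusted p was under 0.05. The 4 female-minus-male differences lie between -2.98 and -1.01, and of the 4 KO-minus-WT differences the 2 in females lie at 1.36 and 1.94 and the 2 in males at -0.06 and 0.35.

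By genotype within pairs of groups, *Gpnmb* was called in females on the low-calcium diet. There it had 343 and 340 recovered reads in KO females 5 and 6, and 51, 21 and 97 in WT females 16, 17 and 18. On the low-calcium diet *Gpnmb* was 341 ± 61.9 normalized counts in KO females (SD, n = 2) and 90.8 ± 28.3 in WT females (n = 3), 3.84-fold higher in KO, with a log2 fold change of 1.94 (SE 0.28, adjusted p = 0.00787, 1.24% of genes called). That call was lost in a fit of these 2 groups alone (adjusted p = 0.378) and without KO female 5 (log2 fold change 1.75, adjusted p = 0.182). Markers of other cells moved in the same comparison. Osteoblast and osteocyte genes summed to 486565 and 500098 normalized counts in the KO females and 738487 to 1327775 in the WT females. Of these 16 genes 1 was called (*Tnfsf11*, which encodes RANKL, -1.40, adjusted p = 0.0442). At an unadjusted p under 0.05 (20.9% of all genes), 12 of the 16 were lower. At that p, 4 of 7 endothelial, 5 of 6 *Gpnmb* partner and 8 of 25 MITF-family and lysosome genes were lower too. In the erythroid list 3 of 5 were higher, and in the neutrophil list 0 of 13 passed. Hepatocyte genes summed to 15.7 and 19.3 in the KO females and 187 to 370.4 in the WT females, with 2 of 24 called lower (*Alb* and *Pzp*). The part of the osteoblast and osteocyte genes, or of the endothelial, partner, lysosome and erythroid genes, in the *Gpnmb* difference was not tested. That of the hepatocyte genes was not tested beyond a fit with hepatocyte and muscle covariates. In that fit the *Gpnmb* difference was 1.93 (adjusted p = 0.00295). On the control diet *Gpnmb* was 536 ± 30.8 in KO females and 219 ± 89.1 in WT females (n = 3 each), with no overlap. The log2 fold change was 1.36 (SE 0.25) and missed the threshold (adjusted p = 0.166). In that comparison limma called no gene (0%), with 1510 at an unadjusted p under 0.05, edgeR called 0 and DESeq2 called 22. *Gpnmb* was among the 22 (1.29, adjusted p = 0.00029), and passed in limma without WT female 14 (1.67, adjusted p = 0.0124) or 17 (1.36, adjusted p = 0.0371).

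In males neither genotype difference in *Gpnmb* was called. The log2 fold change of *Gpnmb* in KO against WT males was 0.35 on the low-calcium diet (SE 0.25, 95% interval -0.18 to 0.87) and -0.06 on the control diet (SE 0.25, interval -0.59 to 0.46). Of all genes 0.00639% were called on the low-calcium diet and 0.46% on the control diet. The 3 KO males on the low-calcium diet all lay above the 3 WT males, by a gap that the fit did not call.

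Averaged over the 4 pairs, *Gpnmb* was 1.86-fold higher in KO mice (log2 fold change 0.90, SE 0.13, adjusted p = 0.0149, higher in 3 of 4 pairs). Only 9 genes (0.0576%) were called in that comparison. *Gpnmb* had the smallest p of all 15638 and was the only one of the 9 that was higher. The others were *Ide*, *Serpina1d*, *Btaf1*, *Alb*, *Pzp*, *4931408D14Rik*, *Apob* and *Islr*, of which *Alb*, *Apob*, *Pzp* and *Serpina1d* are liver genes. The *Gpnmb* value held at 0.80 to 0.97 without each mouse and without mice 16 and 17 together, and stayed called (adjusted p = 0.00118 to 0.0463). With hepatocyte and muscle marker levels as covariates it was 0.99, with an unadjusted p of 0.000476 and an adjusted p of 0.988.

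Whether the genotype difference itself differed between the sexes was tested directly. The log2 difference of *Gpnmb* in KO against WT was larger in females by 1.59 on the low-calcium diet (SE 0.38, adjusted p = 0.118, 0.00639% of genes called) and by 1.43 on the control diet (SE 0.36, adjusted p = 0.14, 0.0767% called). Neither passed the threshold. Averaged over diets, a comparison chosen after the data were seen, the difference was 1.51 (SE 0.26, unadjusted p = 1.05e-05, second smallest of all genes, adjusted p = 0.0818). For that average limma called no gene (0%), with 1761 at an unadjusted p under 0.05, edgeR called 0 and DESeq2 called 48, *Gpnmb* among them (1.41, adjusted p = 8.65e-05). In limma *Gpnmb* also passed without KO male 10 or 29 or without WT female 14, 17 or 18 (1.37 to 1.66, adjusted p = 0.0124 to 0.0423).

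*Gpnmb* was also lower on the low-calcium diet. Averaged over the 4 pairs it was 1.64-fold lower on the low-calcium diet (log2 fold change -0.71, SE 0.13, adjusted p = 0.000357, lower in all 4 pairs), where 31.4% of genes were called. With hepatocyte and muscle covariates the value was -0.62 with an adjusted p of 0.18. By pair, it was called in WT females (90.8 ± 28.3 on the low-calcium diet and 219 ± 89.1 on the control diet, log2 fold change -1.23, SE 0.25, adjusted p = 0.00309, 16.1% of genes called). Without WT females 16 and 17 that value was -0.84 (adjusted p = 0.0656), and in a fit of the 2 groups alone the call was lost (adjusted p = 0.0854). The value was -0.66 in KO females (SE 0.28, adjusted p = 0.153), -0.68 in WT males (SE 0.25, adjusted p = 0.119) and -0.27 in KO males (SE 0.25, adjusted p = 0.625), none of them called in limma. In WT males, where the 3 mice of either diet did not overlap, DESeq2 called it (-0.69, adjusted p = 0.0365).

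The diet response of *Gpnmb* did not pass a test of difference between genotypes or sexes. KO minus WT in the diet response was 0.58 in females (SE 0.38, adjusted p = 0.456, 0.0128% of genes called) and 0.41 in males (SE 0.36, adjusted p = 0.998). Female minus male in the diet response was -0.39 in KO mice (SE 0.38, adjusted p = 0.681) and -0.55 in WT mice (SE 0.36, adjusted p = 0.494, 0.173% of genes called). In males by genotype no gene was called (0%, 841 at an unadjusted p under 0.05, edgeR 0, DESeq2 13), and in KO mice by sex none either (0%, 2135, edgeR 0, DESeq2 172).

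The other 8 genes were not called by genotype. Between KO and WT mice none of the 8 was called in any of the 4 pairs or on average in limma, edgeR or DESeq2. With library quality weights 5 of the 8 were called in females on the low-calcium diet, with *Cd163* higher in KO and *Cd68*, *Csf1r*, *C1qb* and *C1qc* lower. Their average log2 fold changes in KO against WT ran from -0.03 (*Csf1r*) to 0.14 (*Cd163*). At an unadjusted p under 0.05 there were 3 of the 8 in females on the control diet (9.66% of all genes), with log2 fold changes of 0.24 for *Cd68*, 0.43 for *C1qb* and 0.48 for *C1qc*, the same sign as *Gpnmb*. On that diet every KO female lay above every WT female in *C1qb* (990.2 to 1357 in KO and 812 to 909.9 in WT), *C1qc* (708 to 969 in KO and 519 to 631 in WT) and *Adgre1* (768 to 796 in KO and 606 to 707 in WT). How many of all genes separated these groups was not counted. In females on the low-calcium diet there were 4 of the 8 (20.9% of all genes), with *Cd163* at 1.17 and *Cd68*, *C1qb* and *C1qc* at -0.28, -0.48 and -0.57, the opposite sign to *Gpnmb*. In males there were 0 of the 8 on either diet (6.76% of all genes on the control diet and 3.52% on the low-calcium diet).

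**Figure D3:**
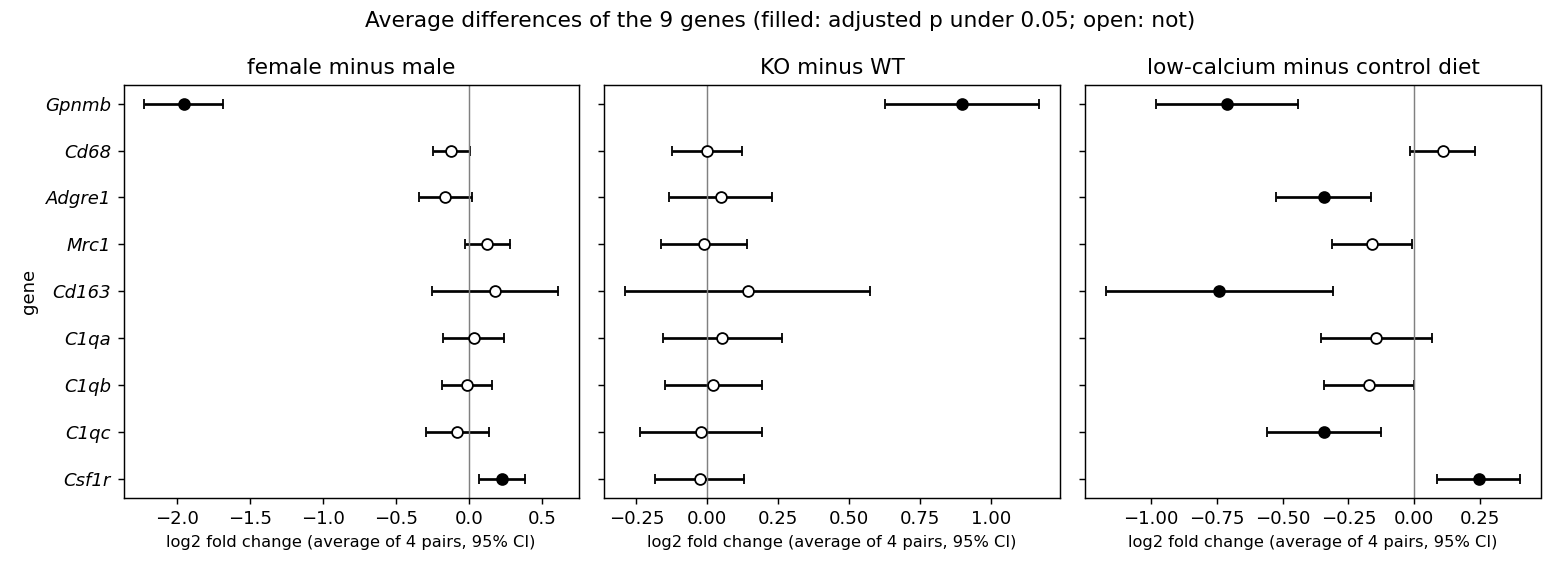
Average log2 fold change (horizontal axis, each panel with its own range, with 95% confidence intervals) of the 9 genes (vertical axis) for female minus male, KO minus WT and low-calcium minus control diet, with filled points where the adjusted p was under 0.05. *Gpnmb* stands at -1.95, 0.90 and -0.71, while the other 8 lie between -0.16 and 0.22 for sex and between -0.03 and 0.14 for genotype.

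*Csf1r*, at chr18:61100598-61132149, was the other gene called by sex. The 11 females had 2284 to 4384 normalized counts (median 2553) and the 12 males 2079.995 to 3123 (median 2321), with wide overlap. The average log2 fold change was 0.22 (SE 0.08, adjusted p = 0.0226). That call was lost without KO female 6 of the low-calcium diet (0.21, adjusted p = 0.0628). By pair, *Csf1r* was called in WT mice on the low-calcium diet, where females 16 and 17 had 4384 and 3476 and female 18 had 2373, against 2340.5, 2633 and 2495 in WT males on that diet (log2 fold change 0.41, SE 0.15, adjusted p = 0.0369). Without mice 16 and 17, the average was 0.10 (adjusted p = 0.127) and the value in that pair was -0.067 (adjusted p = 0.733). The call in that pair was also lost in a fit of the 2 groups alone (adjusted p = 0.181) and without any 1 of mice 8, 9, 16, 17 or 26 (0.21 to 0.45, adjusted p = 0.0529 to 0.258), the lowest value being that without mouse 16. With hepatocyte and muscle covariates both calls were lost (adjusted p = 0.0506 on average and 0.0957 in that pair). In WT mice on the control diet *Csf1r* was not called, although all 3 females (2438 to 2553) lay above all 3 males (2079.995 to 2244).

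*Cd68*, *Adgre1* and *Mrc1* overlapped widely between the sexes. *Cd68* was 948.9 to 1632 normalized counts in females (median 1159) and 1122 to 1577 in males (median 1322). Its average log2 fold change was -0.12 (SE 0.06, adjusted p = 0.115). *Adgre1* had an average of -0.16 (SE 0.09, adjusted p = 0.145) and *Mrc1* of 0.13 (SE 0.07, adjusted p = 0.175). The C1q genes lay between -0.08 and 0.03, and *Cd163* at 0.18 (SE 0.21), all with adjusted p over 0.5 (0.526 to 0.931).

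**Figure D4:**
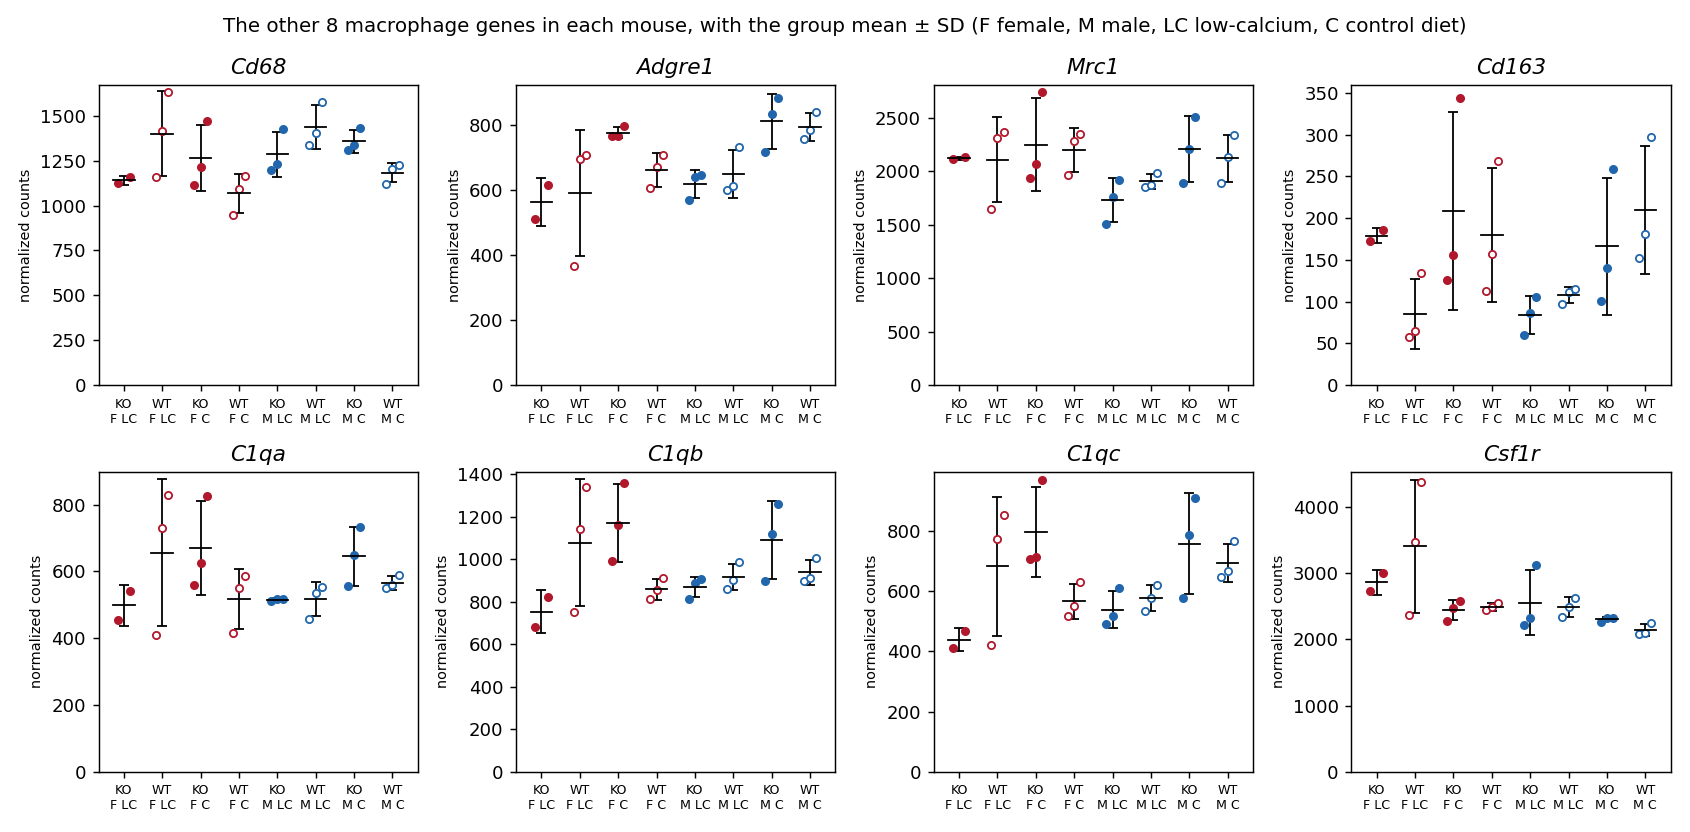
Normalized counts (vertical axis, from 0) of the other 8 genes in each mouse of the 8 groups (horizontal axis), with KO filled, WT open, females red and males blue, and with lines and bars for the group mean and SD. In *Csf1r*, *C1qa*, *C1qb* and *C1qc* the WT females on the low-calcium diet are split, with mouse 18 below mice 16 and 17.

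The diet reached more of the 9 genes. On average over the 4 pairs, 4 of the 9 were lower on the low-calcium diet and 1 higher, against 31.4% of all genes called in either direction. *Cd163* had the largest average log2 fold change of the 9. It ran from 57.1 to 185 normalized counts on the low-calcium diet (median 106, n = 11) and from 101.3 to 344.6 on the control diet (median 156, n = 12). Its log2 fold change was -0.74 (SE 0.21, adjusted p = 0.00982). Group means on the low-calcium and control diet were 179 and 209 in KO females and 85.2 and 179 in WT females. In males they were 108 and 210 in WT and 84.3 and 167 in KO mice. The KO females on the low-calcium diet (172 and 185) lay within the range of those on the control diet (126 to 344.6). *Adgre1* was 366 to 734 on the low-calcium diet (median 617) and 606 to 885 on the control diet (median 768), a log2 fold change of -0.34 (SE 0.09, adjusted p = 0.00509). *C1qc* was 412 to 855 on the low-calcium diet (median 536) and 519 to 969 on the control diet (median 688), also at -0.34 (SE 0.10, adjusted p = 0.0161).

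*Csf1r* moved the other way. It was 2223 to 4384 normalized counts on the low-calcium diet (median 2633) and 2079.995 to 2586 on the control diet (median 2322), a log2 fold change of 0.25 (SE 0.08, adjusted p = 0.0174). Without mice 16 and 17 it was 0.13 (adjusted p = 0.0783), and the call was also lost without KO female 6 (0.23, adjusted p = 0.0501). With hepatocyte and muscle covariates all 5 calls by diet were lost, at -1.26 for *Cd163* (adjusted p = 0.0538), -0.40 for *Adgre1* (0.157), -0.31 for *C1qc* (0.34) and 0.22 for *Csf1r* (0.407). *Mrc1* (-0.16), *C1qb* (-0.17), *C1qa* (-0.14) and *Cd68* (0.11) did not pass.

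Within single pairs of groups the diet calls were few. In WT females, *Cd68* was 1632, 1413 and 1159 normalized counts on the low-calcium diet (mice 16, 17 and 18) and 1093, 1162 and 948.9 on the control diet, a log2 fold change of 0.38 (SE 0.12, adjusted p = 0.0289). Mouse 18 lay below the highest control mouse, and without mice 16 and 17 the value was 0.12 (adjusted p = 0.564). The call was also lost without mouse 1, 16 or 32 (0.27 to 0.40, adjusted p = 0.0647 to 0.146) and in a fit of the 2 groups alone (adjusted p = 0.15).

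In KO females, 2 of the 9 genes were called, both lower, where 7.4% of all genes were called. *C1qb* was 683 and 825 normalized counts on the low-calcium diet and 1162, 990.2 and 1357 on the control diet (log2 fold change -0.63, SE 0.18, adjusted p = 0.037). *C1qc* was 412 and 467 on the low-calcium diet and 712, 708 and 969 on the control diet (-0.84, SE 0.22, adjusted p = 0.0285). In both genes the 2 mice on the low-calcium diet lay below all 3 on the control diet. Both calls were lost without KO female 4, 5, 6 or 20, at -0.76 to -0.49 for *C1qb* (adjusted p = 0.0868 to 0.296) and -0.93 to -0.69 for *C1qc* (adjusted p = 0.0668 to 0.209). They were lost as well in a fit of the 2 groups alone (0.0867 and 0.0614) and with hepatocyte and muscle covariates (0.123 and 0.0975).

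In WT females both genes had 2 of 3 mice on the low-calcium diet above all 3 on the control diet. *C1qb* was 1141, 1339 and 751 normalized counts on the low-calcium diet and 855, 909.9 and 812 on the control diet, and *C1qc* was 775, 855 and 421 on the low-calcium diet and 549, 631 and 519 on the control diet. Neither gene was called in WT females. Mouse 18 was the lowest of all 6 in both genes and mice 16 and 17 the highest. The diet response in KO females minus that in WT females was -0.91 for *C1qb* (SE 0.24, adjusted p = 0.0834) and -1.05 for *C1qc* (SE 0.30, adjusted p = 0.098). Neither passed in limma, and DESeq2 called both.

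In males none of the 9 was called by diet in limma or edgeR. In KO males 3.41% of all genes were called, and 4 of the 9 had an unadjusted p under 0.05 (17.9% of all genes) with 0 called by DESeq2. In WT males 4.88% were called, with 3 of the 9 at an unadjusted p under 0.05 (20.9% of all genes) and 1, *Gpnmb*, called by DESeq2. No difference between 2 diet or genotype responses was called in limma or edgeR for any of the 9, with 0 to 4 of the 9 at an unadjusted p under 0.05 in each of these tests, where all genes gave 5.38% to 16.8%.

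*Gpnmb* also stood apart from the other 8 within groups. After the group means were taken out, its log2 level correlated with each of the other 8 at r = -0.25 to 0.26 over the 23 mice (median 0.05), whereas the 28 pairs among the other 8 had r = 0.18 to 0.92 (median 0.61). These values describe 23 libraries that share a depth scaling. Among the WT females on the low-calcium diet, mouse 18 was the lowest in each of the other 8 genes and the highest in *Gpnmb*. How much the r values rest on that group was not tested. *C1qb* and *C1qc* were closest (r = 0.92), followed by *Mrc1* and *Cd163* (0.83) and *Cd68* and *Csf1r* (0.81). With group means left in, *Gpnmb* and *Csf1r* ran in opposite directions (r = -0.66, Spearman rho -0.72).

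**Figure D5:**
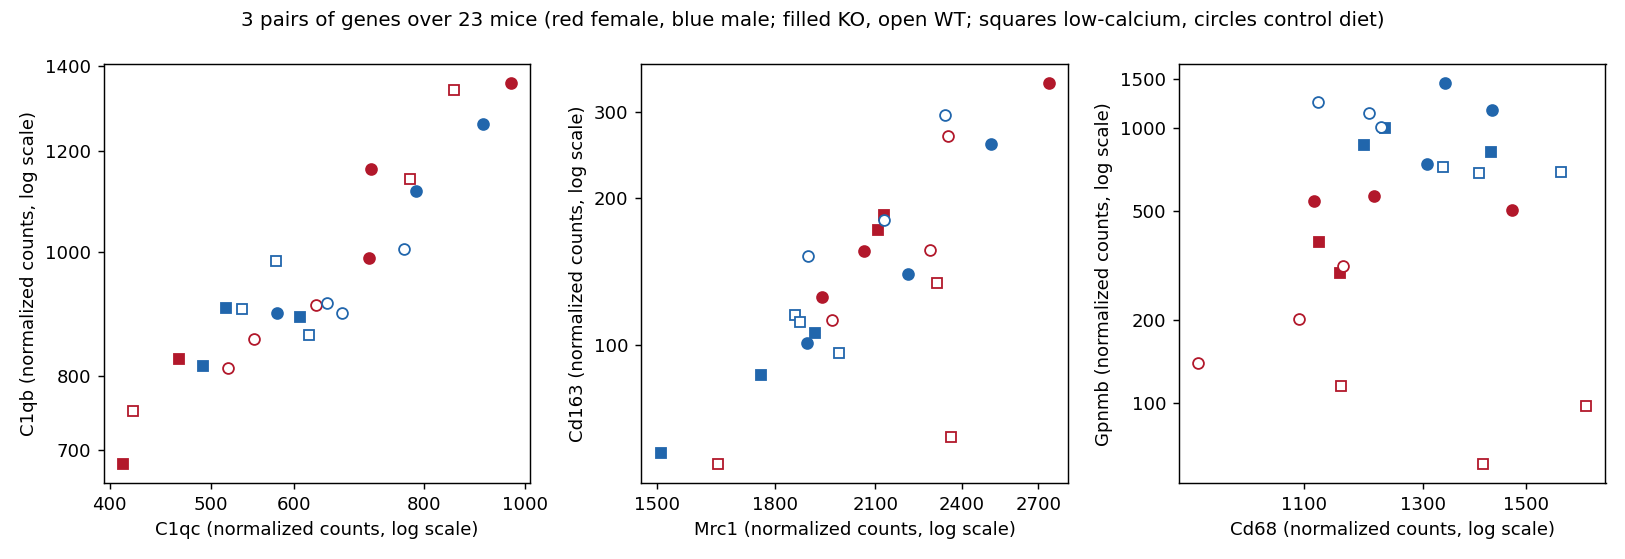
Normalized counts of 3 pairs of genes against each other in each of the 23 mice (both axes on log scales), with females red, males blue, KO filled, WT open, low-calcium diet as squares and control diet as circles. *C1qb* follows *C1qc* and *Cd163* follows *Mrc1*, while *Gpnmb* spreads from 59.8 to 1455 over a *Cd68* range of 948.9 to 1632.

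Ratios within a mouse were taken with the differences between groups left in. *C1qb* was 1.31 to 1.79 times *C1qc* in every mouse (median 1.55), and *C1qa* was 0.71 to 1.32 times *C1qc* (median 0.93). For every 100 normalized counts of *Cd68* there were 4.23 to 110.6 of *Gpnmb*. By group that ratio averaged 30.0 ± 6.04 in KO females (n = 2) and 6.71 ± 2.93 in WT females (n = 3) on the low-calcium diet, and 43.0 ± 7.71 in KO females and 20.1 ± 6.36 in WT females on the control diet (SD, n = 3 each). In males it averaged 70.1 ± 11.9 in KO and 48.8 ± 5.03 in WT mice on the low-calcium diet, and 82.0 ± 26.1 in KO and 95.6 ± 14.2 in WT mice on the control diet (n = 3 each). *Cd163* per 100 of *Mrc1* ran from 2.74 to 12.7, with a median of 6.32.

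The genes whose log2 level over the 23 mice was most like that of *Gpnmb*, among 12353 genes with a mean of at least 50, were *Katnbl1* (r = 0.87), *Tnfrsf21* (0.86), *Mapk14* (0.86), *Chp1* (0.85) and *Uchl5* (0.85). With group means taken out these fell to r = 0.20 to 0.47. For *Cd68* they included *Atp6ap1*, *Ctsb*, *Mmp9* and *Hexa* (r = 0.74 to 0.77), which encode a proton pump subunit, lysosomal hydrolases and the gelatinase MMP9. For *Mrc1* they were *Spic* (0.91), *Vcam1* (0.86), *Adam22*, *Siglec1* and *Axl*. *Spic* encodes a transcription factor of red pulp and marrow macrophages, and *Vcam1* and *Siglec1* surface proteins of such cells. For *C1qa* they were *Manbal* (0.74), *Spic* (0.74), *Axl* (0.72), *Adap2* and *Tsen15*. With group means taken out, *Mrc1* and *Spic* correlated at 0.93 and *C1qa* and *Axl* at 0.72.

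Lists of other genes were read against the 40.1% of all genes called by sex on average. Of 23 further tissue macrophage genes tested, 5 were higher and 4 lower in females on average, a share near that of all genes (median log2 fold change -0.01, all genes -0.00). *Stab1* (0.54, adjusted p = 3.42e-05), a scavenger receptor, was among the higher ones. *Lyz2* (-0.55, adjusted p = 0.000105), the lysozyme of myeloid cells, and *Mpeg1* (-0.30, adjusted p = 0.000303) were among the lower ones. In KO against WT none of the 23 was called on average in limma, edgeR or DESeq2, with 5 at an unadjusted p under 0.05 (9.04% of all genes).

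Among CSF1R ligands and myeloid signalling genes, 8 of 12 were lower and 1 higher in females (median -0.33). The lower ones included *Fcer1g* (-0.47, adjusted p = 9.07e-05) and *Tyrobp* (-0.46, adjusted p = 0.00102), adaptors of activating receptors, and *Spi1* (-0.40, adjusted p = 0.00016), which encodes PU.1. Of the 2 ligands, *Csf1* was higher (0.33, adjusted p = 0.00384) and *Il34* lower (-0.36, adjusted p = 0.0218).

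Of 25 MITF-family and lysosome genes, 10 were lower and 1 higher in females, also near the 40.1% of all genes (median -0.06). *Lgals3* (-0.49, adjusted p = 2.79e-05), which encodes galectin-3, *Ctsd* (-0.30, adjusted p = 6.71e-05), which encodes cathepsin D, and the factors *Tfe3* (-0.19, adjusted p = 0.00361) and *Tfec* (-0.23, adjusted p = 0.0345) were among the lower ones. In KO against WT none of the 25 was called on average in limma, edgeR or DESeq2, with 5 at an unadjusted p under 0.05 (9.04% of all genes). Among binding partners and cleaving enzymes of *Gpnmb*, *Sdc4* and *Itgb1* were higher in females and *Adam10* was lower.

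Complement genes outside C1q were mixed by sex, with 8 of 20 higher and 7 lower in females. *Cfd* (2.68, adjusted p = 4.74e-06), the factor D of fat cells, *C1ra* (0.51, adjusted p = 2.79e-05) and *C4b* (0.73, adjusted p = 3.28e-05) were higher, and *Itgb2* (-0.43, adjusted p = 5.97e-05), a chain of complement receptor 3, was lower. All 9 fat cell genes tested were higher in females too.

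By diet, 31.4% of all genes were called on average. On the low-calcium diet 8 of 23 further tissue macrophage genes were lower and 3 higher (median -0.21, all genes -0.01). *Cd14* (0.64, adjusted p = 0.000234) was among the higher ones, and *Siglec1* (-0.40, adjusted p = 0.0204) and *Cd4* (-0.39, adjusted p = 0.00134) were lower. Of 11 genes of erythroblastic islands and iron handling, 7 were lower and 1 higher (median -0.27), led by *Treml4* (-1.26, adjusted p = 6.75e-06) and with *Hmox1* (-0.47, adjusted p = 0.00213), the haem-degrading enzyme, and *Slc40a1* (-0.33, adjusted p = 0.00394), the iron exporter. Of 15 monocyte and dendritic cell genes, 11 were lower and 2 higher (median -0.28).

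Of the 25 MITF-family and lysosome genes, 7 were higher and 6 lower on the low-calcium diet, where 31.4% of all genes were called. *Spp1* (1.53, adjusted p = 1.23e-07), which encodes osteopontin and which bone cells also make, and *Cd63* (0.34, adjusted p = 0.000468) were higher, and *Lipa* (-0.21, adjusted p = 0.00209) and *Lgals3* (-0.27, adjusted p = 0.00309) were lower.

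Markers of other cell types in the bone chips moved with the groups as well. Osteoclast genes summed to 59305 to 100239 normalized counts in females (median 72209) and 66656 to 96901 in males (median 76110), with 11 of 17 higher and 1 lower in females on average, where 40.1% of all genes were called by sex and 31.4% by diet. On the low-calcium diet 12 of 17 were higher and none lower, with sums of 69699 to 100239 on that diet and 59305 to 78217 on the control diet. Osteoblast and osteocyte genes were higher in females in 13 of 16 and on the low-calcium diet in 11 of 16, with 1 lower by diet. On these averages both lists moved opposite to *Gpnmb* by sex and by diet in most of their members. In KO mice on the low-calcium diet, *Calcr* alone of the 2 lists was called by sex, higher in females (2.59% of all genes called). On the control diet *Alpl*, *Bglap*, *Bglap2* and *Postn* were called higher in KO females (3.91% of all genes called), and *Tcirg1* lower. The part of either list in the *Gpnmb* differences was not tested. Neutrophil genes were lower in females in 12 of 13 (276011 to 616275 in females and 440193 to 703763 in males) and on the low-calcium diet in 9 of 13, the same direction as *Gpnmb*, and their part in its differences was not tested. The 7 melanocyte genes, which mark the pigment cells in which *Gpnmb* is also made, summed to only 7.88 to 25.6 normalized counts in females and 12.53 to 40.9 in males, and the neural Schwann cell list differed in 1 of 7 genes by sex. By genotype, none of the osteoclast, osteoblast and osteocyte or neutrophil genes was called in limma or edgeR on average. DESeq2 called 1 of the osteoblast and osteocyte genes. At an unadjusted p under 0.05 in limma there were 1 of 17 osteoclast, 7 of 16 osteoblast and osteocyte and 1 of 13 neutrophil genes. Of all genes 9.04% were under it.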

How the data were processed

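Gene-level values came from osteocyte-enriched bone chips of 23 mice. Per the labels and methods, the authors checked reads with FastQC 0.11.5, aligned them to mm10 with STAR 2.7.10a, counted uniquely mapped reads per gene by strand with featureCounts, and divided counts by DESeq2 size factors. The deposited signal values are these normalized counts for 21402 genes. All were whole reads times 1 factor per library, within 0.01 reads, which gave 7217601 to 33352631 reads per library (median 20907756). Nothing states whether mice shared litters or batches.

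Genes at 10 or more in at least 2 libraries were kept. Log2(value + 1) was fitted with limma 3.58.1 (R 4.3.3) with 8 group means and a variance trend. P-values are two-sided limma values adjusted by Benjamini and Hochberg over 15638 genes, and an adjusted p under 0.05 was called. Fold changes are on this log2 scale and understate low genes. There were 12 pairs of groups, 3 averages over 4 pairs and 6 differences between differences, and 1 average difference added after the data were seen. Mouse was the replicate. The fits were also run on simulated counts with changes placed only in WT females on the control diet. That simulation held no added hepatocyte RNA, low-mapping libraries or diet effects, so it does not bear on those.

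The alternatives were edgeR 4.0.16 and DESeq2 1.42.0 on recovered reads, a pseudocount of 5, no filter, quantile normalization, library weights, hepatocyte and muscle marker means as covariates, 2 groups alone, the thresholds of the study (p under 0.01, log2 fold change past 1), leaving out each mouse, and leaving out mice 16 and 17. Gene positions and exon lengths came from GENCODE M21 (GRCm38) by symbol. The members, the 19 lists and the tests were chosen with earlier results of these data known. Named genes are the members, up to 4 genes with the smallest adjusted p per list and comparison described, other called genes that a count rests on, and the 5 most like 4 members, leaving out predicted genes and sex-linked markers. Some named list genes were picked for their role after values were seen. KO female mouse 23 was excluded by the authors and not analysed here. Some list genes are not reported here.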

Additional observations from a re-analysis of the deposited data

How the results depend on the processing

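Of 31 values at single genes, 906 of 993 repeats under other settings kept direction and side of the threshold. The sign turned for *Csf1r* in females against males among WT mice on the low-calcium diet (-0.067 without mice 16 and 17), and for *Gpnmb* in KO against WT males on the control diet, not called in any fit (0.32 with covariates, 0.21 without KO mouse 28 and 0.01 without WT mouse 24, with a range of -0.28 to 0.21 over leaving out each mouse). The cause was not tested. Depth was at least 7217601 reads in each library, and each group had 2 or 3 mice. *Gpnmb* by sex on average stayed called in all settings. No paired analysis was possible because no 2 groups share a mouse number.

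The number of the 9 genes called moved by over 1.5 times as follows. With hepatocyte and muscle covariates it was 0 (1 under the reported settings, given in brackets here and after) for sex in WT mice on the control diet, 1 (2) for sex in WT mice on the low-calcium diet, 0 (2) for diet in KO females, 1 (0) for genotype in females on the control diet, 1 (2) for sex on average, 0 (5) for diet on average, 0 (1) for genotype on average, and 1 (0) for genotype by sex on the low-calcium diet and on average. With library quality weights it was 3 (1) for sex in WT mice on the control diet, 4 (2) for sex on average, 5 (2) for diet in WT females, 3 (0) in WT males and 2 (0) in KO males, 1 (0) for genotype in females on the control diet and 6 (1) on the low-calcium diet, 1 (0) for genotype by sex on the control diet, 2 (0) on the low-calcium diet and 1 (0) on average, and 3 (0) for genotype by diet in females. With the 2 groups alone it was 1 (2) for sex in WT mice on the low-calcium diet, 0 (1) for sex in KO mice on the low-calcium diet and 0 (1) on the control diet, 0 (2) for diet in WT females, 3 (0) in WT males and 0 (2) in KO females, and 0 (1) for genotype in females on the low-calcium diet. Without a filter it was 1 (2) for sex in WT mice on the low-calcium diet, 1 (2) for diet in KO females and 1 (0) for genotype by sex on average. DESeq2 gave 4 (2) for diet in WT females, 1 (0) for diet in WT males, 1 (0) for genotype in females on the control diet, 1 (0) for genotype by sex on the control diet, on the low-calcium diet and on average, and 2 (0) for genotype by diet in females. The thresholds of the study in DESeq2 gave 1 (2) for sex in WT mice on the low-calcium diet, 0 (2) for diet in KO females and 1 (0) for genotype in females on the control diet. Without mice 16 and 17 it was 1 (0) for diet in KO males, 1 (0) for genotype in females on the control diet and 2 (1) on the low-calcium diet, 4 (2) for sex on average, and 1 (0) for genotype by sex on the low-calcium diet and 2 (0) on average.

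Leaving out each mouse in turn gave 1 to 5 genes for sex in WT mice on the low-calcium diet (5 without mouse 18), 0 to 1 in KO mice on either diet and 1 to 3 on average (1 without KO female 6). For diet it gave 1 to 5 in WT females (5 without mouse 18), 0 to 3 in KO females and 0 to 1 in KO males. For genotype it gave 0 to 1 in females on the control diet and 0 to 2 on the low-calcium diet (2 without mouse 17). For genotype by sex it gave 0 to 1 on the low-calcium diet and on average, and for genotype by diet in females 0 to 2 (2 without mouse 18). Where 1 mouse was left in a group, it was assumed to vary like the other groups. The cause of these shifts was not tested.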
